A study of Rattus norvegicus with 4 samples.

Results

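The 9 genes described here encode enzymes and regulators with which the liver makes fatty acids from carbohydrate after a meal. They were chosen by name (*Fasn*, *Acaca*, *Acly*, *Scd*, *Elovl6*, *Pnpla3*, *Me1*, *Thrsp*, and *Pklr*), and all 9 were found among the 16992 annotated genes of the deposited tables. The tables hold RNA levels from the left lateral liver lobe of 4 wild-type male Wistar rats, 6 weeks of age at purchase, with 1 library for each condition. One rat inhaled 4.5% sevoflurane for 6 hours and another inhaled 6% desflurane for 6 hours, whereas the control of each agent inhaled it only until it lost consciousness. All rats breathed 50% oxygen, had no access to food or water in the 2 hours before the experiment, and were killed at about the same hour of the afternoon. Feeding was not varied as a condition, and the rats under 6 hours of anesthesia could not eat during that time, so that the length of anesthesia and the length of food deprivation cannot be told apart. As each condition had a single library, the spread between rats is unknown, and differences are given without tests.

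In the fed liver, insulin and glucose raise the synthesis of fatty acids. Pyruvate from glycolysis enters mitochondria, leaves them as citrate, and is turned into acetyl-CoA, malonyl-CoA, and palmitate, which is then elongated, desaturated, and esterified to triglyceride. Insulin acts in large part through SREBP-1c, encoded by *Srebf1*, and glucose through ChREBP, encoded by *Mlxipl*, and both factors bind near many of the genes described here. In fasting, this program is turned down while fatty acid oxidation and glucose production are turned up.

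Levels are given as TPM, a transcript abundance that StringTie normalizes for transcript length and library size. A gene was called higher or lower when its TPM value was above 2 in the higher library and the ratio between the libraries was more than 2-fold, which is the rule used by the study. Genes with a TPM value above 2 in at least 1 of the 2 libraries of a comparison were counted as tested. The depth of the 4 libraries, derived from the ratio between FPKM and coverage, was between 4.47 and 5.40 Gb of aligned sequence. The 8 hepatocyte markers had summed TPM values between 134345 and 151263, and *Alb* was the most abundant of them. Adipose tissue also expresses many of these genes at high levels, and its markers *Lep* and *Plin1* were listed at 0 in every library, while *Adipoq* was at or below 0.08. The whole list of 7 adipocyte markers summed to between 59.9 and 73.8 TPM, and most of this came from *Cidec*, which is also expressed in liver. Of the others, *Cfd* was between 14.1 and 16.6 TPM, *Fabp4* between 1.44 and 3.60 TPM, and *Retn* at or below 0.31 TPM. *Fabp4* was called higher in the desflurane control than in the sevoflurane control (2.05-fold). The sevoflurane control stood apart in its pancreatic acinar RNA. The 8 acinar markers summed to 57.1 TPM there and to between 16.2 and 18.8 TPM in the other libraries. Most of the latter came from *Cela1*, at 18.4, 15.1, and 15.2 TPM in the sevoflurane 6 h, desflurane control, and desflurane 6 h libraries. *Cela1* was 22.8 TPM in the sevoflurane control. Of the 8, 7 were more than 2-fold higher than in the desflurane control, where 1.17% of all genes tested were called in this direction. The 4 erythroid markers found summed to 84.5 TPM in the sevoflurane control and to 34.2 TPM in the desflurane 6 h library. They summed to 57.7 and 61.4 TPM in the sevoflurane 6 h library and the desflurane control. All 4 were called lower in the desflurane 6 h library than in the sevoflurane control, where 1.58% of all genes tested were called lower. The 9 Kupffer cell markers summed to 665, 426, 518, and 631 TPM in the sevoflurane control, the sevoflurane 6 h library, the desflurane control, and the desflurane 6 h library, the order used throughout. The part of these cell populations in the results below was not tested, and in whole tissue, fewer cells of a type and less RNA per cell cannot be told apart.

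Promoter windows of 300 bases (250 before and 50 after the transcription start) were taken from RefSeq, build GRCr8, in which 6 of the 9 genes matched. These were *Acly*, *Scd*, *Pnpla3*, *Me1*, *Thrsp*, and *Pklr*. The windows of *Acly*, which varied together with *Fasn*, and of *Scd* and *Pnpla3*, the only members past the 2-fold limit in the comparisons with the respective controls, are printed below on the strand of the gene. Capitals mark the CCAAT box (CCAAT), the GC box (GGGCGG), the E-box (CACGTG), and the core of the sterol response element (TCACNCCAC) on either strand, which are known binding motifs of NF-Y, Sp1, ChREBP and related factors, and SREBP, respectively.
Acly promoter, chr10:85963582-85963881, minus strand: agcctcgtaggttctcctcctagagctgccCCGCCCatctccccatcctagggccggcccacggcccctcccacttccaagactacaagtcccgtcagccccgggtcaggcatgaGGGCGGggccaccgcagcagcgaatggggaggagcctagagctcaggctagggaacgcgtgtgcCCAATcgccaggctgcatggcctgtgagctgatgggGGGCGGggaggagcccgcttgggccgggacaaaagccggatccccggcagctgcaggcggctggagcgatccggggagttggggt
Scd promoter, chr1:253231682-253231981, minus strand: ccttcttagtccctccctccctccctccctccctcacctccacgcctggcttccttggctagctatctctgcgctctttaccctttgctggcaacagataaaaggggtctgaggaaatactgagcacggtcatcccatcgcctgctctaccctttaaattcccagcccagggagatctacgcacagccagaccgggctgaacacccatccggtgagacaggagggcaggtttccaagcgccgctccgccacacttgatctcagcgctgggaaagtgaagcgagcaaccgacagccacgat
Pnpla3 promoter, chr7:117173278-117173577, plus strand: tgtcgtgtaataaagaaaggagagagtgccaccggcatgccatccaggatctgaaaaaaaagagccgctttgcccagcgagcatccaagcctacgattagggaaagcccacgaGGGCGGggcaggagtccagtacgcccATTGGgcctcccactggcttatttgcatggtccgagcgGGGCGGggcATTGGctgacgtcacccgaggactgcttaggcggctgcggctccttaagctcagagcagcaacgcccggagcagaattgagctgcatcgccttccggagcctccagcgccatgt
The *Acly* window had 1 CCAAT box, beginning 71 bases before the start, and 3 GC boxes. The *Pnpla3* window had 2 CCAAT boxes and 2 GC boxes, all between 64 and 137 bases before the start, and the *Scd* window had no match to any of the 4 motifs. Among the 6 windows, 3 had a CCAAT box, compared with 37.5% of all 33469 windows, and 4 had a GC box, compared with 33.1%. No window of the 6 had an exact match to the E-box or the core sterol response element, which were present in 6.42% and 1.12% of all windows. Only these letters were searched, so that a site of ChREBP or SREBP with other letters, such as imperfect E-boxes, would not be found. A match describes letters in this window only.

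The RNA levels of the 9 genes covered a wide range, and their order differed between the libraries at a few places. *Thrsp*, which encodes the small lipogenic regulator Spot 14, had the highest mean with TPM values of 717, 623, 694, and 738. It was followed by *Scd*, the desaturase that turns stearate into oleate, with 567, 605, 789, and 389. The liver pyruvate kinase gene *Pklr* and the ATP citrate lyase gene *Acly* had mean TPM values of 155 and 114, and the other members had means of 62.9 for *Fasn*, 42.3 for *Acaca*, 32.7 for *Me1*, 5.36 for *Elovl6*, and 4.45 for *Pnpla3*. *Scd* exceeded *Thrsp* in the desflurane control, and in the same library *Me1* exceeded *Acaca* and *Pnpla3* exceeded *Elovl6*. *Thrsp* and *Scd* together made up between 71.0% and 81.2% of the summed TPM of the 9 genes. The sum itself was 1582, 1707, 1914, and 1589, and without these 2 genes it was 298, 479, 431, and 461.

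**Figure D1:**
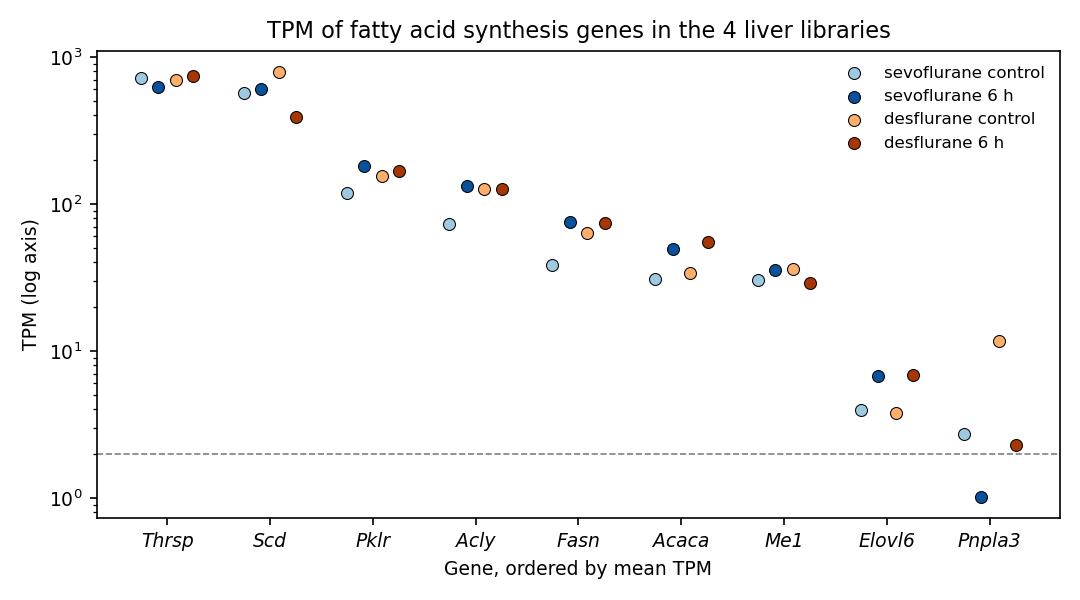
TPM values (log axis) of the 9 fatty acid synthesis genes in the 4 libraries, ordered by mean TPM, with 1 point for each library and a dashed line at the TPM limit of 2. *Pnpla3* ranges from 1.02 to 11.7, whereas *Thrsp* stays between 623 and 738.

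The genes also differed in how much they varied. The ratio between the highest and lowest library was 11.5 for *Pnpla3*, 2.02 for *Scd*, 1.96 for *Fasn*, 1.82 for *Elovl6*, 1.82 for *Acly*, 1.78 for *Acaca*, and 1.51 for *Pklr*. It was 1.23 for *Me1* and 1.18 for *Thrsp*. Among the 9136 genes with TPM values above 2 in all 4 libraries, the median of this ratio was 1.34 and its 90th percentile was 1.90. A larger ratio than that of *Pnpla3*, which was itself not above 2 in all libraries, was found for 0.0985% of these genes, while 69.7% varied more than *Me1* and 80.0% varied more than *Thrsp*. The coverage behind these values was between 49.1 and 1477 for the members other than *Elovl6* (7.11 to 11.6) and *Pnpla3* (1.73 to 22.0), so that the values of the latter 2 genes are the least precise. For *Elovl6*, the coverage is a sum over its 2 rows, so that each row had less.

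The cytosolic steps from citrate to palmitate are carried out by the products of *Acly*, *Acaca*, and *Fasn*. *Fasn* (rn6, chr10:109987735-110005901, minus strand) encodes fatty acid synthase, and its TPM values were 38.3, 75.3, 63.5, and 74.5. The 6 h libraries were nearly equal and both exceeded the controls, which were not alike. The ratio of *Fasn* was therefore 1.96 with sevoflurane and 1.17 with desflurane relative to the respective controls (log2 0.97 and 0.23). Against the opposite control, the 2 values changed places, at 1.18 for sevoflurane and 1.95 for desflurane.

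*Acly* (chr10:88392248-88442845, minus strand) encodes the enzyme that splits citrate into acetyl-CoA and oxaloacetate. Its TPM values were 72.6, 132, 127, and 127. Only the sevoflurane control was low, and the remaining 3 libraries were within 1.04-fold of each other. The log2 ratio was 0.86 with sevoflurane and 0.00 with desflurane against their own controls, and 0.06 and 0.80 against the other control. After median-of-ratios scaling, the value for desflurane against its own control was -0.13 and that for sevoflurane against the desflurane control was -0.01.

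*Acaca* (chr10:71519392-71719910, plus strand) encodes acetyl-CoA carboxylase 1, which makes malonyl-CoA and sets the pace of the pathway. Its TPM values were 31.0, 49.0, 34.0, and 55.2. Unlike *Fasn* and *Acly*, the 2 controls were close to each other, and both 6 h libraries exceeded both of them. The ratio to the respective control was 1.58 with sevoflurane and 1.63 with desflurane, and it was 1.44 and 1.78 with the other control.

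*Elovl6*, the elongase that extends palmitate to stearate, followed the pattern of *Acaca*. Its TPM values were 3.96, 6.77, 3.80, and 6.90, and the ratio was 1.71 with sevoflurane and 1.82 with desflurane. Against the other control, these ratios were 1.78 and 1.74. The rn6 annotation used by the authors lists this gene at 2 places on opposite strands (chr2:234187490-234296124, minus, and chr2:234375315-234483145, plus), whereas RefSeq lists 1 entry in GRCr8. The first row had TPM values of 2.02, 3.57, 1.91, and 3.52 and the second had 1.94, 3.20, 1.89, and 3.38, and whether they share reads was not tested. Both rows were higher in both 6 h libraries.

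*Scd* (chr1:264160129-264172729, minus strand) went another way. Its highest value was in the desflurane control and its lowest in the desflurane 6 h library, a ratio of 2.02 that passed the 2-fold limit (log2 -1.02). With sevoflurane, the log2 ratio was 0.09 against its own control and -0.38 against the desflurane control. The desflurane 6 h library was also lower than the sevoflurane control, by 0.54 on the log2 scale, and it was 0.64 lower than the sevoflurane 6 h library. Relative to *Fasn* in the same library, *Scd* was 14.8, 8.04, 12.4, and 5.22 times as abundant. This ratio does not depend on the scaling between libraries, and it was lower in both 6 h livers than in either control. The same held for *Thrsp*, *Pklr*, *Acly*, *Me1*, and *Pnpla3* relative to *Fasn*, but not for *Acaca* and *Elovl6*. The lower ratio was thus not particular to *Scd*, and *Fasn* itself was higher in both 6 h livers than in both controls.

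*Pnpla3* (chr7:125034815-125055571, plus strand) encodes a lipid droplet protein with lipase activity that is raised by SREBP-1c in the fed state. Its TPM values were 2.74, 1.02, 11.7, and 2.29. The desflurane control was high and the sevoflurane 6 h library was low, and both 6 h values were lower than both control values. *Pnpla3* was called lower with sevoflurane (2.68-fold, log2 -1.42) and with desflurane (5.13-fold, log2 -2.36). Against the opposite control, it was 11.5-fold lower with sevoflurane, whereas with desflurane the difference was 1.20-fold and did not pass the limit. Its coverage in the sevoflurane 6 h library was 1.73, and its value in the sevoflurane control was close to the TPM limit. A limit of 5 TPM, a fold limit of 3, a pseudocount of 1 TPM, or FPKM in place of TPM each removed the call with sevoflurane against its own control. With FPKM, the log2 ratio was -1.47, and the call was lost because the limit of 2 was applied to FPKM.

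*Me1* and *Pklr* supply the pathway. *Me1* (chr8:94256839-94368834, minus strand) encodes cytosolic malic enzyme, a source of NADPH, and its TPM values were 30.3, 35.6, 36.0, and 29.1. The 6 h and control values overlapped, and the log2 ratios were 0.23 with sevoflurane and -0.30 with desflurane. *Pklr* (chr2:188449661-188458034, plus strand), the last step of glycolysis in hepatocytes, had TPM values of 119, 179.9, 155, and 167. Both 6 h libraries exceeded both controls, with ratios of 1.51 for sevoflurane and 1.07 for desflurane against their own controls, and the latter was -0.03 on the log2 scale after median-of-ratios scaling.

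*Thrsp* (chr1:162381251-162385575, minus strand) is known as one of the genes that respond most rapidly to carbohydrate and thyroid hormone. Nevertheless, its log2 ratio was -0.20 with sevoflurane and 0.09 with desflurane, and -0.16 and 0.04 with the other control. The 6 h and control values overlapped. Its paralog *Mid1ip1*, whose product promotes the polymerization of acetyl-CoA carboxylase, had TPM values of 31.8, 40.9, 68.0, and 32.5 and was called lower with desflurane (2.09-fold). This call rests on the desflurane control, which was 2.14-fold higher than the sevoflurane control. Against the sevoflurane control, the desflurane 6 h value of *Mid1ip1* was 1.02-fold higher and was not called.

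Counted over the 9 genes, sevoflurane against its own control gave 0 genes called higher and 1 called lower, compared with 2.23% and 3.3% of 9754 genes tested. Desflurane gave 0 higher and 2 lower (*Scd* and *Pnpla3*), compared with 2.79% and 1.48% of 9855 genes tested. With a fold limit of 1.5, sevoflurane gave 5 higher (*Fasn*, *Acly*, *Elovl6*, *Acaca*, and *Pklr*) and 1 lower, where 8.03% and 8.08% of all genes tested passed. Under the same limit, desflurane gave 2 higher (*Elovl6* and *Acaca*) and 2 lower, where 10.4% and 4.25% of all genes tested passed. The higher genes just inside and outside this limit with sevoflurane were *Pklr* with a ratio of 1.51 and *Me1* with 1.18.

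The median log2 ratio of the 9 genes was 0.60 with sevoflurane, compared with 0.05 over all genes tested, and 7 members were above 0. With desflurane, it was 0.09 compared with 0.12 over all genes tested, and 6 members were above 0. The whole table was shifted upward with desflurane, and after median-of-ratios scaling the median of the members was -0.04. Whether the agents differed in this median was not tested, and the 2 controls were not alike, as follows.

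**Figure D2:**
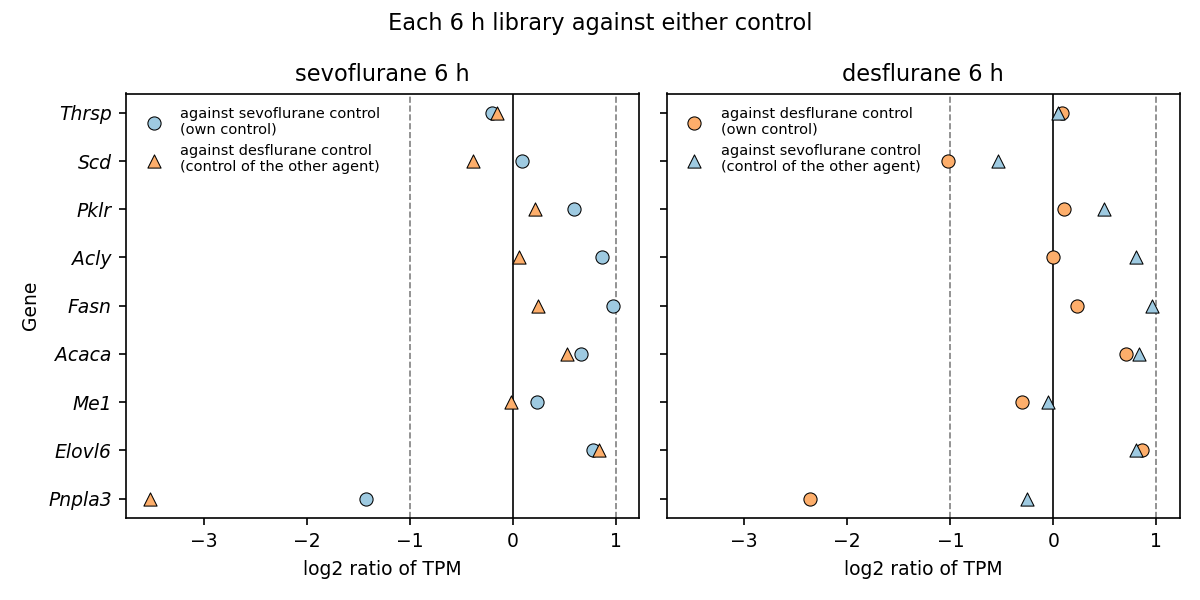
log2 ratios of TPM for each gene in the sevoflurane 6 h library (left) and the desflurane 6 h library (right), against their own control (circles) and the opposite control (triangles), with dashed lines at 2-fold. Points for *Acaca* and *Elovl6* lie to the right of 0 against either control and those of *Pnpla3* lie to the left, while *Fasn*, *Acly*, and *Pklr* are farther to the right against the sevoflurane control.

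The 2 controls inhaled different agents until loss of consciousness, and 7 of the 9 genes had higher TPM values in the desflurane control. The median log2 ratio between the controls was 0.39 for the members, in contrast to -0.03 over all genes tested. *Pnpla3* was called higher (4.29-fold) and none was called lower, and 1.17% of 9756 genes tested passed in each direction. *Acly* and *Fasn* were 1.74-fold and 1.66-fold higher in the desflurane control, and *Thrsp* and *Elovl6* were lower by 0.05 and 0.06 on the log2 scale.

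With the controls exchanged between the agents, sevoflurane gave 0 genes called higher and 1 lower (*Pnpla3*), compared with 2.52% and 2.59% of 9754 genes tested. Desflurane gave 0 in both directions, compared with 2.84% and 1.58% of 9865 genes tested. With a fold limit of 1.5, sevoflurane gave 1 higher and 1 lower against the desflurane control, where 8.64% and 7.27% of all genes tested passed. Desflurane gave 4 higher and 0 lower against the sevoflurane control, where 9.67% and 4.5% passed. The median log2 ratio of the members became 0.06 for sevoflurane and 0.49 for desflurane, and the values over all genes tested were 0.07 and 0.11. The larger median was obtained with the sevoflurane control for either agent.

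In the direct comparison of the 6 h libraries, in which no control enters, the median log2 ratio of desflurane over sevoflurane was -0.01 for the members and 0.07 over all genes tested. *Pnpla3* was called higher with desflurane (2.24-fold) and none was called lower, compared with 2.76% and 1.17% of 9829 genes tested. *Fasn*, *Elovl6*, *Acly*, *Pklr*, and *Acaca* differed by less than 1.13-fold between the 6 h libraries. The remaining genes were *Scd* (0.64 lower with desflurane), *Me1* (0.29 lower), and *Thrsp* (0.24 higher) on the log2 scale.

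Taking both agents against both controls, a count added after the values were seen, the 6 h values were higher than both control values for 5 genes (*Fasn*, *Acaca*, *Acly*, *Elovl6*, and *Pklr*), lower for *Pnpla3*, and overlapping for *Scd*, *Me1*, and *Thrsp*. Of 9993 genes tested in the same way, 33.3% were higher and 13.3% were lower. For *Acly*, the lower of the 6 h values was 126.6 and the higher of the control values was 126.5. After median-of-ratios scaling, *Acly* and *Pklr* overlapped and *Thrsp* was lower, so that 3 genes were higher, 2 were lower, and 4 overlapped, where 22.3% and 22.8% of all genes tested were higher and lower.

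The patterns over the 4 libraries were compared as log2 TPM values centred on the mean of each gene. By Euclidean distance over the 4 libraries, the nearest pairs among the members were *Fasn* and *Acly* (0.181) and *Acaca* and *Elovl6* (0.219). The first pair was low only in the sevoflurane control, and the second was low in both controls. *Pklr* was nearest to the median pattern of the 9 genes (0.0456), and *Scd* (0.873) and *Pnpla3* (2.67) were farthest from it. The genes outside the group whose pattern was nearest to this median were *Scrn3* (0.0328), *Naa20* (0.0427), *Zfp64* (0.0474), *Psmd9* (0.0490), and *Peg3* (0.0521), and *Scrn3* had TPM values of 17.1, 26.0, 22.8, and 24.2. With 4 libraries, such closeness is only a description.

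**Figure D3:**
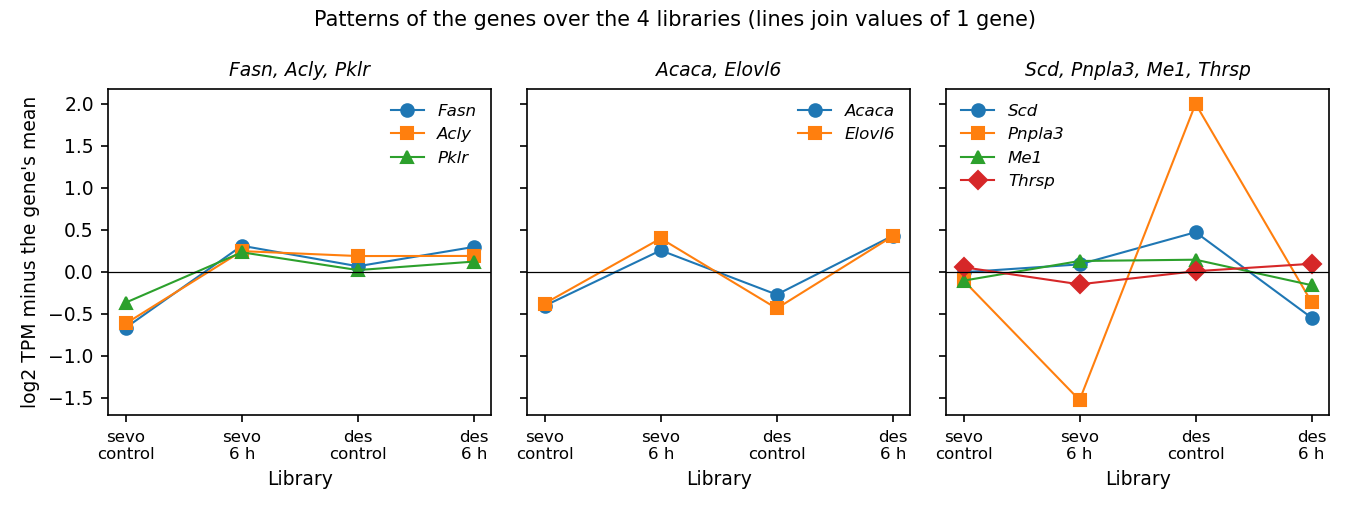
log2 TPM of each gene minus its mean over the 4 libraries, drawn in 3 panels, with 1 point for each library and lines that join the values of 1 gene. *Fasn*, *Acly*, and *Pklr* are lowest in the sevoflurane control, *Acaca* and *Elovl6* are low in both controls, and *Pnpla3* peaks in the desflurane control.

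Among 15 regulators of lipogenic transcription, the factor that mediates the insulin response differed from the factor that mediates the glucose response. *Srebf1* had TPM values of 136, 69.5, 181, and 74.3 and was lower in both 6 h libraries than in both controls. It was called lower with desflurane (2.43-fold) and was 1.96-fold lower with sevoflurane, just below the limit (log2 -0.97, and -1.02 after median-of-ratios scaling), and the tables give 1 value for the gene, so that SREBP-1a and SREBP-1c cannot be told apart. With the controls exchanged, the desflurane 6 h value was 1.83-fold lower, below the limit, and the sevoflurane 6 h value was 2.60-fold lower and was called. After median-of-ratios scaling, *Srebf1* was also called lower with sevoflurane against its own control. *Mlxipl* had 97.8, 117, 139.8, and 125, with log2 ratios of 0.26 and -0.16. Within each library, *Srebf1* was 1.39, 0.595, 1.29, and 0.593 times as abundant as *Mlxipl*.

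With desflurane, *Insig2*, whose product retains SREBP in the endoplasmic reticulum, was called higher (2.35-fold, from 158 to 372), as was *Ppargc1b*, a coactivator of SREBP-1c (2.17-fold, from 3.59 to 7.82). *Insig2* was 1.95-fold higher with desflurane against the sevoflurane control and was not called there. Sevoflurane called only *Nr0b2*, the bile acid-induced repressor SHP, lower (2.39-fold, from 43.8 to 18.4). This value rests on the sevoflurane control, because *Nr0b2* was 16.6 in the desflurane control and 23.5 in the desflurane 6 h library. Thus, of the 15 regulators, sevoflurane gave 0 higher and 1 lower, where 2.23% and 3.3% of all genes tested were called. Desflurane gave 2 higher and 1 lower, where 2.79% and 1.48% were called. The medians were 0.02 and 0.11 on the log2 scale, and both were below 0 after median-of-ratios scaling (-0.03 and -0.02), under which *Ppargc1b* was at 0.99 and no longer called.

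Among 12 genes of glucose and fructose use, *Slc2a5*, a fructose transporter, had TPM values of 8.73, 17.9, 9.31, and 24.2. Both 6 h values were higher than both controls, and it was called higher with both agents (2.06-fold and 2.60-fold). *Pfkfb1*, which makes and degrades the activator of phosphofructokinase, was called higher with desflurane (2.92-fold, from 23.7 to 69.1). In all, sevoflurane gave 1 higher and 0 lower, where 2.23% and 3.3% of all genes tested were called. Desflurane gave 2 higher and 0 lower, where 2.79% and 1.48% were called. The median log2 ratios were 0.41 and 0.45, compared with 0.05 and 0.12 over all genes tested, and they were 0.36 and 0.33 after median-of-ratios scaling. After median-of-ratios scaling, *Slc2a5* with sevoflurane was at 0.99 on the log2 scale, so that its call was lost, as it was against the desflurane control (1.93-fold).

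**Figure D4:**
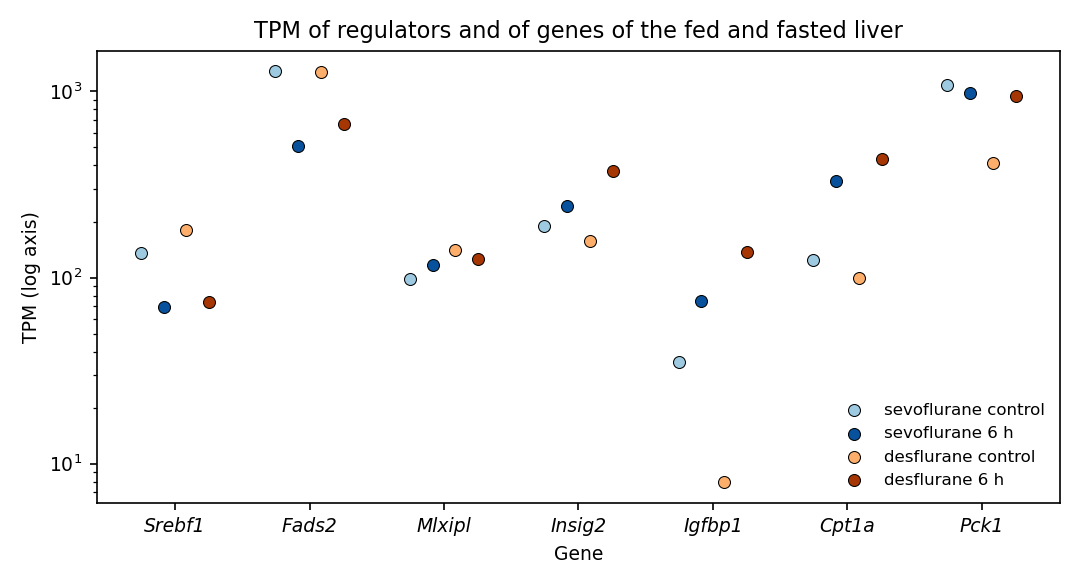
TPM values (log axis) of 7 genes related to lipogenic regulation and to the fed and fasted liver, with 1 point for each library. *Srebf1* and *Fads2* are lower in both 6 h libraries than in both controls, *Cpt1a* is higher in both, and *Igfbp1* ranges from 7.94 in the desflurane control to 136 in the desflurane 6 h library.

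Another 13 genes take part in or regulate the supply of citrate, acetyl-CoA, and NADPH. Among them are *Pdk1*, *Pdk2*, and *Pdk4*, whose products inhibit pyruvate dehydrogenase. Of the 13, sevoflurane called *Pdhb*, a subunit of this enzyme, higher (2.06-fold, from 63.2 to 130.1), and no gene was called lower. Of all genes tested with sevoflurane, 2.23% were called higher and 3.3% lower. Desflurane called none of the 13 genes, where 2.79% and 1.48% of all genes tested were called, although *Pdhb* went from 63.7 to 120.03. After median-of-ratios scaling, *Pdhb* was at 0.99 on the log2 scale with sevoflurane, so that its call was lost. *Pgd*, an NADPH-producing enzyme of the pentose phosphate pathway, had log2 ratios of -0.15 with sevoflurane and -0.49 with desflurane. The most abundant gene of this list, *Idh1*, differed by 1.06-fold with desflurane. The medians of the list were 0.07 and 0.23.

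Among other genes of fatty acid synthesis, elongation, desaturation, and activation, 19 were found and 17 were tested. *Fads2*, the first desaturase of polyunsaturated fatty acid synthesis and a known target of SREBP-1, had TPM values of 1283, 506, 1277, and 665. Its controls were almost identical and both 6 h values were lower, and it was called lower with sevoflurane (2.53-fold) and was 1.92-fold lower with desflurane (log2 -0.94, and -1.07 after median-of-ratios scaling). Its neighbor in the pathway, *Fads1*, had 451, 247, 527, and 297. With each agent, 0 genes of this list were called higher and 1 was called lower, *Fads2* with sevoflurane and *Mid1ip1* with desflurane. Of all genes tested, 2.23% were called higher and 3.3% lower with sevoflurane, and 2.79% and 1.48% with desflurane. The medians of the list were -0.01 and 0.10, the latter -0.02 after scaling. After scaling, *Acacb* (log2 -1.01) and *Acsl3* (-1.05) also passed the limit with sevoflurane, and *Fads2* did so with desflurane. The share of all genes called after scaling was not calculated. With the controls exchanged, 4 genes of the list were called lower with sevoflurane and 0 with desflurane. Of all genes tested, 2.59% and 1.58% were called lower in these comparisons.

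Of 25 genes found for the synthesis, storage, and breakdown of triglyceride, 22 were tested with sevoflurane and 23 with desflurane. Sevoflurane called 3 higher and 1 lower, where 2.23% and 3.3% of all genes tested were called. Desflurane called 6 higher and 0 lower, where 2.79% and 1.48% were called. The medians were 0.31 and 0.30, compared with 0.05 and 0.12 over all genes tested, and they were 0.26 and 0.18 after median-of-ratios scaling. The genes called with sevoflurane were *G0s2*, an inhibitor of lipolysis (from 47.6 to 143), *Plin5* and *Fitm2*, which act on lipid droplets (2.41-fold and 2.39-fold higher), and *Abhd5*, the activator of adipose triglyceride lipase (2.08-fold lower). Desflurane called *Gpat3*, *Cidea*, *Lpin1*, *Pnpla2*, *Lipe*, and *Plin2* higher, by between 2.07-fold and 3.69-fold, and *Plin2* was below 2-fold after median-of-ratios scaling (log2 0.92). Against the sevoflurane control, *Cidea*, whose control values were 5.39 and 2.39, was 1.43-fold higher and *Lipe* 1.98-fold higher, so that 4 of the 6 calls held against both controls. With sevoflurane, *G0s2* and *Fitm2* were called against both controls, and *Plin5* and *Abhd5* were not. *Pnpla2* and *Lipe* encode lipases, in contrast to *Lpin1* and *Gpat3*, which act in synthesis. *Pnpla2*, a relative of *Pnpla3*, had TPM values of 26.0, 44.4, 21.8, and 61.0, with both 6 h values higher than both controls, which is the opposite of *Pnpla3*.

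None of 18 genes of cholesterol synthesis and uptake, which are regulated by the related factor SREBP-2, was called with either agent under the TPM limit of 2 and the fold limit of 2. Of all genes tested, 2.23% were called higher and 3.3% lower with sevoflurane, and 2.79% and 1.48% with desflurane. The medians of the 18 genes were -0.20 and 0.04, the latter -0.08 after scaling. After scaling, *Dhcr7*, the last step of cholesterol synthesis, was called lower with sevoflurane (log2 -0.96 before and -1.01 after). The most abundant of them, *Hmgcs1*, had TPM values of 328, 236, 286, and 306. Of 21 genes induced by fasting, sevoflurane called 4 higher and 0 lower and desflurane called 9 higher and 1 lower, with medians of 0.25 and 0.75, where 2.23% and 3.3% of all genes tested with sevoflurane and 2.79% and 1.48% with desflurane were called. With the controls exchanged, sevoflurane gave 6 higher and 1 lower, where 2.52% and 2.59% of all genes tested were called. Desflurane gave 7 higher and 0 lower, where 2.84% and 1.58% were called, and the medians were 0.43 and 0.55. *Igfbp1*, a gene repressed by insulin, had TPM values of 35.1, 74.7, 7.94, and 136, and *Cpt1a*, the entry of fatty acids into mitochondria, had 124, 329, 99.6, and 435. Between the controls, 16 of the 21 genes were lower in the desflurane control, with a median of -0.20 compared with -0.03 over all genes tested. *Fgf21* was called higher with sevoflurane (9.97-fold), but its control values were 12.2 and 41.3, and the difference was 2.94-fold against the desflurane control. *Cyp4a2* had TPM values of 71.4, 181, 225, and 73.6 and was called higher with sevoflurane and lower with desflurane, and neither call held with the controls exchanged (log2 -0.32 and 0.05). The other genes named by the rule were *G6pc*, *Ppargc1a*, and *Vnn1*, which were called higher with desflurane by between 3.98-fold and 4.86-fold.

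**Figure D5:**
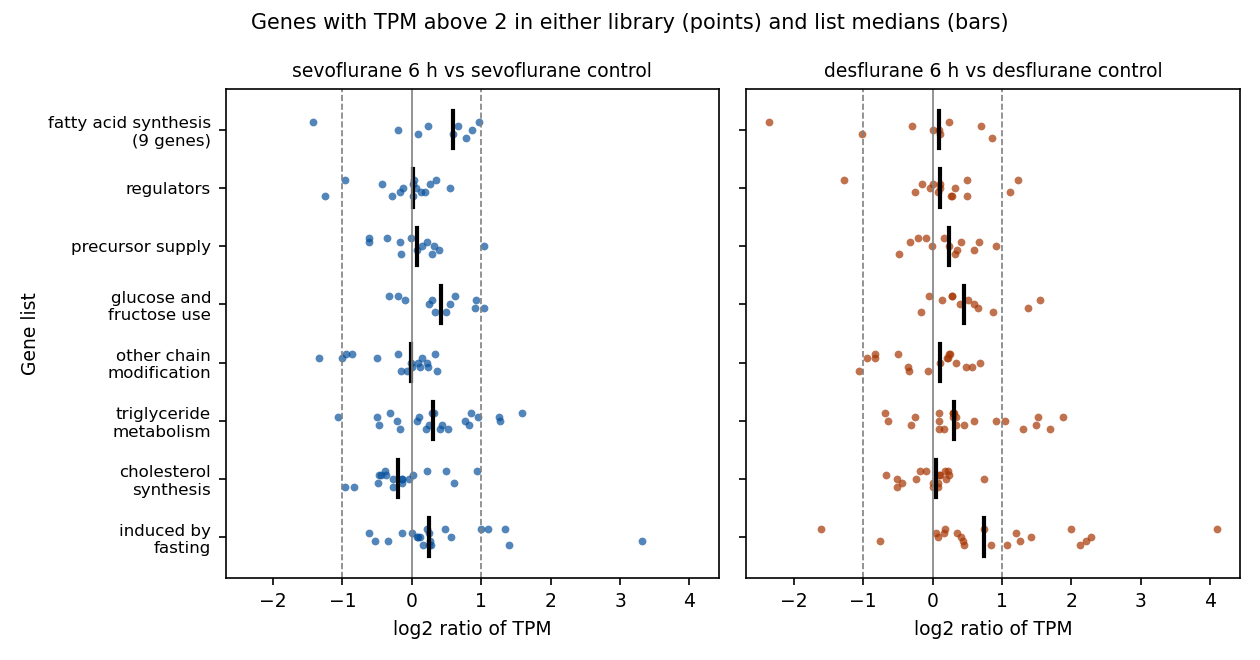
log2 ratios of TPM for sevoflurane 6 h (left) and desflurane 6 h (right) against their own controls, with 1 point for each gene with a TPM value above 2 in either library, a black bar at the median of each list, and dashed lines at 2-fold. The median of the 9 fatty acid synthesis genes is 0.60 with sevoflurane and 0.09 with desflurane, and the median of the fasting genes is 0.25 and 0.75.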

How the data were processed

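RNA-seq data of 4 rat livers, 1 library per condition, were used, and conditions were taken from the labels. According to the methods of the study, the authors trimmed paired-end reads with sickle, mapped them to rn6 with HISAT2, sorted them with SAMtools, and quantified transcripts with StringTie against refGene models of rn6. For each row, the deposited tables give TPM, FPKM, and coverage for each row. The deposited TPM values are a signal scaled so that the assembled rows (STRG) alone make up the whole, and the annotated rows used here add a sum of 779824 to 813454. The deposited FPKM values were normalized for library size by the authors, and the deposited coverage signal was not. Without read counts, counting intervals were not calculated.

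Assembled rows were left out, as were those not longer than 200 base pairs, and TPM values were summed by gene symbol, which left 16992 genes. log2 ratios were calculated without a pseudocount. Calls required a TPM value above 2 in the higher library and a more than 2-fold difference. The members and all gene lists were chosen with earlier results of these data known. Named genes were all members, the genes of each list called against the respective control (at most 6, largest first, or otherwise the most abundant), and the 5 genes nearest the median pattern. Other genes named in the text were chosen after their values were seen. Promoters were matched by symbol to RefSeq windows of GRCr8. Alternatives covered the TPM and fold limits, a pseudocount, median-of-ratios scaling, FPKM, the treatment of rows, and which control was used. Python 3.11.15 was used with numpy 2.4.6, pandas 2.3.3, and matplotlib 3.10.9. Simulated data served to test the script that makes the calls. Some genes of the lists are not reported here.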

Additional observations from a re-analysis of the deposited data

Results flagged for a closer look

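*Scd*, *Me1*, and *Thrsp* were listed for a closer look because their log2 ratios to the respective control had opposite signs with the 2 agents. The values were 0.0935 with sevoflurane and -1.02 with desflurane for *Scd*, 0.23 and -0.30 for *Me1*, and -0.20 and 0.09 for *Thrsp*. Each agent has 1 library per state, so that this contrast was not tested. Only the value of *Scd* with desflurane passed the 2-fold limit. Against the opposite control, *Scd* was below 0 with both agents (-0.38 and -0.54).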

How the results depend on the processing

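The choice of control moved the median log2 ratio of the members most, from 0.60 to 0.06 with sevoflurane and from 0.09 to 0.49 with desflurane when the controls were exchanged, and to 0.39 and 0.28 with the mean of the 2 controls. Under median-of-ratios scaling, the median changed sign with desflurane against its own control (-0.04) and with sevoflurane against the desflurane control (-0.01). A fold limit of 1.5 gave 5 members higher with sevoflurane and 2 with desflurane against their own controls, and 1 and 4 against the other control, instead of 0. Of all genes tested, 8.03% and 10.4% passed this limit against the own control, and 8.64% and 9.67% against the other control. A fold limit of 3 gave 0 members lower with sevoflurane instead of 1 and 1 with desflurane instead of 2. With sevoflurane against its own control, 0 members were lower under a TPM limit of 5, a pseudocount of 1 TPM, or FPKM with the limit read as 2 FPKM. With the mean of the 2 controls, 1 member was lower with desflurane. Of 198 values of single members under the alternatives other than the exchanged controls, some of which cannot change a gene with 1 row, 9 changed sign, and 0 of these were called values. No paired analysis was possible because each condition has 1 library. The medians of the other lists, which were first planned over genes with TPM values above 2 in both libraries, are given over genes above 2 in either library, a choice made after seeing the data, and the largest of 14 shifts was 0.08.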
